A study of Mus musculus with 6 samples.

Results

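The genes described here are 7 genes for peptide hormones of the gut, Gast, Cck, Gip, Sct, Nts, Tac1 and Ghrl. They were picked by gene symbol, not by a measured value, and are 7 of the 54556 genes in the deposited table of pancreatic islet RNA. The study sequenced islet RNA from C57BL/6 mice, which were 8 weeks old and ate normal chow, to ask what loss of Mettl3, the catalytic subunit of the enzyme complex that methylates adenosine in mRNA, does in β cells. There were 3 libraries of the genotype Mettl3 flox/flox, called controls below, and 3 labelled β-Mettl3-KO, whose genotype adds RIP-Cre, a Cre recombinase driven by the rat insulin promoter, to the same floxed alleles. Both groups therefore carry the floxed alleles, none of the 6 libraries is labelled as Cre without them, and the labels do not name animals or say whether islets were pooled, so p-values measure the spread between libraries only. Mettl3 itself averaged 3.41 ± 0.519 FPKM in controls and 4.14 ± 0.0697 FPKM in the other group (SD, n = 3 each), with a log2 difference of 0.25 ± 0.11 (SE, limma adjusted p = 0.12). Reads over the whole gene cannot show whether floxed exons were lost, so this value does not check the genotype, and the second group is called "knockout-labelled" throughout.

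Gut hormones are made by scattered endocrine cells of the gut epithelium that sense nutrients and release peptides into the blood. Their precursors are cut by prohormone convertases and then trimmed, amidated, sulfated or acylated, and the finished peptides act on G-protein-coupled receptors in stomach, gallbladder, exocrine pancreas, brain and islets. Gastrin is the hormone of gastric antral G cells that drives acid secretion, and is also made in the fetal pancreas. Cholecystokinin, from duodenal I cells, drives gallbladder contraction and pancreatic enzyme release. Glucose-dependent insulinotropic polypeptide, from K cells, is an incretin that raises insulin secretion through its receptor on β cells. Secretin stimulates bicarbonate secretion, neurotensin is a peptide of the ileum and of neurons, Tac1 encodes substance P and neurokinin A, and ghrelin is a peptide of the stomach and of the rare ε cells of the islet. Fabp2, the fatty acid binding protein of enterocytes, is used here as the marker of absorptive gut epithelium against which the hormone genes were compared.

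The results turn on Gast, Cck and Gip, so the 250 bases before the annotated start of each are shown, 5′ to 3′ on the gene's own strand, from RefSeq on GRCm38.p6. All 7 genes are in that promoter table. Gast is on the plus strand of chromosome 11, and its stretch is chr11:100334157-100334406. Cck is on the minus strand of chromosome 9, with the stretch chr9:121495695-121495944. Gip lies on the plus strand of chromosome 11, with the stretch chr11:96024295-96024544. Capitals mark matches, on either strand, to a TATA box (TATAAA), an E-box (CANNTG), the core of a cAMP response element (TGACG) or a GATA site (AGATAA).
Gast: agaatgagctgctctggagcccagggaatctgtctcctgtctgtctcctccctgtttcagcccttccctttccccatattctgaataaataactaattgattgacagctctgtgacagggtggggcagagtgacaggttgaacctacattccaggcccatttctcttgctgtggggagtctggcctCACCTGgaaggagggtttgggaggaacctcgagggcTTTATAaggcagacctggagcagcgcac
Cck: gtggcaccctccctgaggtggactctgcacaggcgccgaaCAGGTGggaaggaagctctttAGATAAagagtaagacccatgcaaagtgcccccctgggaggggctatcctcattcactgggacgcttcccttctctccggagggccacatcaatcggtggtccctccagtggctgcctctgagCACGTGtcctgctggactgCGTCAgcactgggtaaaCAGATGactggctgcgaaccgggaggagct
Gip: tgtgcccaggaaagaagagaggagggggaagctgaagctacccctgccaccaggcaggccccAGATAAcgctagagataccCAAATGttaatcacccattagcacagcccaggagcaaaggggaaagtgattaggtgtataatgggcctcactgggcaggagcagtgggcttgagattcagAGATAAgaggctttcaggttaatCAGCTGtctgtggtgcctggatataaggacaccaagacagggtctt
Only the Gast stretch of these 3 held a TATAAA match, read on the opposite strand and starting 28 bases before the gene, and it held 1 E-box, 64 bases before the start. The Cck stretch held 3 E-boxes, at 210, 66 and 30 bases, with 1 TGACG match at 47 bases and 1 AGATAA match at 189 bases. The Gip stretch held 2 E-boxes, at 169 and 46 bases, and 2 AGATAA matches, at 188 and 69 bases. Among the 32851 promoters of this length in the table, 12.4% held TATAAA, 66.2% CANNTG, 17.8% TGACG and 10% AGATAA. These matches describe letters in a window and nothing about binding. Methylation and factor binding were not measured.

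Values are FPKM, fragments per kilobase of gene scaled for depth, with the reads behind them, since most of these genes rested on few reads. Each library held between 16398862 and 18387313 reads. A count of 0 allows up to 3 reads, and such floors and the intervals below cover counting error only. Genes that define islet endocrine cells summed to 256100 to 322500 FPKM in controls and 116500 to 131100 in the other group. Of these, 8 of 16 were called lower and 2 higher, against 17.2% and 16.9% of all tested genes. All 7 genes were near the bottom of the islet's hormone range. Glucagon (Gcg), the main hormone of α cells, was at 7397 FPKM in the control libraries, while the highest mean of any of the 7 genes in either group was 2.79 FPKM. In the control libraries the order of mean FPKM was Ghrl (1.06), Gast (0.691), Sct (0.389), Cck (0.0854) and Tac1 (0.0543), with Gip and Nts at 0 reads. In the knockout-labelled libraries it was Gast (2.79), Gip (2.05), Ghrl (0.953), Cck (0.923), Sct (0.790), Tac1 (0.223) and Nts (0.0128). In the second order Gast and Gip, at 2.79 ± 1.24 and 2.05 ± 2.12 (SD, n = 3), do not differ beyond their spread, and neither do Ghrl, Cck and Sct, at 0.953 ± 0.143, 0.923 ± 0.898 and 0.790 ± 0.578. With whole-islet RNA, fewer cells of a type and less RNA per cell cannot be told apart.

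Of the 7 genes, Gast was called higher in the knockout-labelled libraries, and none was called lower. Gast, Gip and Ghrl (3 of 7) reached a mean of 1 FPKM over the 6 libraries and were tested among 14497 genes with limma on log2(FPKM + 0.5), calling genes whose Benjamini-Hochberg adjusted p was under 0.05. Over all tested genes 16.9% were called higher and 17.2% lower, and 1 of 3 tested is too few to read against these shares, while the other 4 could not be called. With each library scaled to its own total, which moved the median of all genes by 0.363, calls were 7550 higher and 716 lower in place of 2446 and 2489. Gast, Cck and Gip had every knockout-labelled library above every control library, as did 22.0% of the 23388 genes with a mean of at least 0.1 FPKM. Gip passed the filter only through the group in which it had reads, and Gast, at 0.691 FPKM in controls, only through the knockout-labelled group. Cck and Tac1 passed the filter at 0.1 FPKM in the same way. This holds for every gene below that was called higher with a control mean under 1 FPKM. Such calls are values and not support for a difference. Log2 differences on this scale understate the change of genes with such low values.

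**Figure D1:**
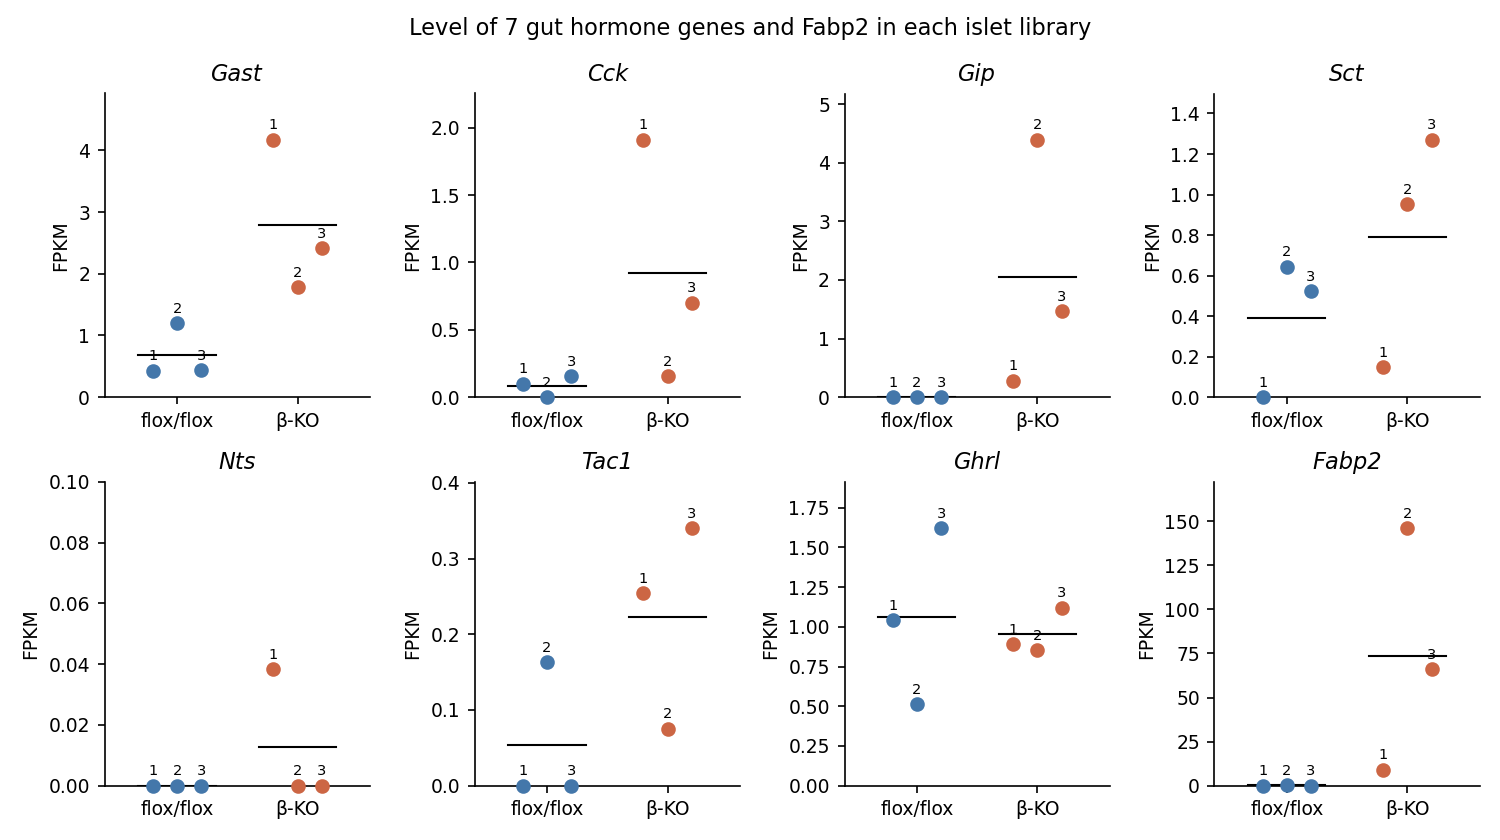
FPKM of the 7 hormone genes and Fabp2 in each library (y axis, FPKM from 0, a separate scale per gene), with control (flox/flox) libraries in blue, knockout-labelled libraries (β-KO) in red, the replicate number beside each point and a line at the group mean. Gast, Cck and Gip have groups that do not overlap, Sct, Tac1 and Ghrl have groups that do, and replicate 1 is the highest knockout-labelled library for Gast and Cck but the lowest for Gip and Fabp2.

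Gast (ENSMUSG00000017165, 1 annotated transcript of 3 exons, plus strand of chromosome 11 from 100334407 to 100336996, GRCm38) rose. It had 3, 8 and 3 reads in control replicates 1 to 3, and 40, 16 and 23 reads in the knockout-labelled replicates 1 to 3. In FPKM these were 0.431, 1.20 and 0.439 against 4.17, 1.78 and 2.41. The groups did not overlap, control replicate 2 was the highest of its group, and knockout-labelled replicate 1 stood above the other two. Means were 0.691 ± 0.444 and 2.79 ± 1.24 FPKM (SD, n = 3 each), a ratio of 4.03 (6.41 without control replicate 2). Its log2 difference was 1.46 ± 0.35 (SE, limma adjusted p = 0.0204), with 3 of 3 libraries higher. Gast reached the filter only through the knockout-labelled group, so this call is a value and not support for a difference. Leaving out 1 library at a time gave 1.17 to 1.75 and kept the call in 3 of 6 fits. It was lost without control replicate 1 (limma adjusted p = 0.0608), control replicate 3 (limma adjusted p = 0.065) or knockout-labelled replicate 3 (limma adjusted p = 0.0612).

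Cck (ENSMUSG00000032532, 6 transcripts of 2 to 4 exons, minus strand of chromosome 9 from 121489824 to 121495694) encodes the peptide most like gastrin in its active end. It had 2, 0 and 3 reads in control replicates 1 to 3, and 52, 4 and 19 in the knockout-labelled replicates 1 to 3, or 0.101, 0 and 0.155 FPKM against 1.91, 0.157 and 0.702. The knockout-labelled replicate 2 lay just above the highest control library, and replicate 1 carried most of the reads. Group means were 0.0854 ± 0.0786 and 0.923 ± 0.898 FPKM (SD, n = 3 each), a ratio of 10.8. Without 1 library that ratio ran from 5.03 (knockout-labelled replicate 1 left out) to 18.3 (control replicate 3 left out), and was 7.21 without control replicate 2. The gene was under the filter of 1 FPKM. With the filter at 0.1 FPKM the log2 change came to 1.09 ± 0.46 (SE, limma adjusted p = 0.143), which missed the threshold where 11.5% of genes were called higher, and the exact permutation test over the 6 libraries gave p = 0.1, the smallest that 3 against 3 allow. It passed without knockout-labelled replicate 2, at 1.55 (limma adjusted p = 0.0465). The Gast transcript and the Cck transcripts share no identical run longer than 12 bases.

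Gip (ENSMUSG00000014351, 2 transcripts of 6 exons, plus strand of chromosome 11 from 96024545 to 96030831) had no read in any control library. The knockout-labelled replicates 1 to 3 had 4, 59 and 21 reads, or 0.279, 4.39 and 1.47 FPKM. Replicate 2, the lowest of its group for Gast and Cck, was the highest for Gip. The mean of 2.05 ± 2.12 FPKM (SD, n = 3) was at least 20.8-fold higher than that of the control group, taking 3 reads over that group as its floor. That bound rested on replicate 2 and was at least 8.9-fold without it. Its log2 difference was 1.97 ± 0.66 (SE, limma adjusted p = 0.0596), which missed the threshold. That side changed without knockout-labelled replicate 1, at 2.64 (limma adjusted p = 0.0111), and with each library scaled to its own total, at 2.11 (limma adjusted p = 0.0342). Because Gip entered the test only through the group in which it had reads, these calls are given as values and not as support for a difference.

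Sct (ENSMUSG00000038580, minus strand of chromosome 7 from 141278330 to 141279133) had 0, 6 and 5 reads in control replicates 1 to 3 and 2, 12 and 17 reads in the knockout-labelled replicates 1 to 3. Its FPKM values were 0, 0.644 and 0.522 against 0.149, 0.951 and 1.27. The groups overlapped, because knockout-labelled replicate 1 lay below control replicates 2 and 3. With the filter at 0.1 FPKM the log2 change came to 0.50 ± 0.47 (SE, limma adjusted p = 0.497).

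Tac1 (ENSMUSG00000061762, plus strand of chromosome 6 from 7554879 to 7565834) had 0, 8 and 0 reads in control replicates 1 to 3, and 18, 5 and 24 in the knockout-labelled replicates 1 to 3. In FPKM these were 0, 0.163 and 0 against 0.254, 0.0752 and 0.340. All control reads came from replicate 2, which lay above knockout-labelled replicate 2, so the groups overlapped. Its log2 difference was 0.38 ± 0.22 (SE, limma adjusted p = 0.273, filter at 0.1 FPKM). Nts (ENSMUSG00000019890, minus strand of chromosome 10 from 102481756 to 102490486) had 1 read in all, in knockout-labelled replicate 1, so neurotensin mRNA was at or under the floor in every library.

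Ghrl (ENSMUSG00000064177, minus strand of chromosome 6 from 113716119 to 113719880) was the most abundant of the 7 in the control libraries. It had 17, 8 and 26 reads there and 20, 18 and 25 reads in the knockout-labelled libraries, or 1.04, 0.513 and 1.62 FPKM against 0.889, 0.853 and 1.12. All 3 knockout-labelled libraries lay inside the control range. Means were 1.06 ± 0.555 and 0.953 ± 0.143 FPKM (SD, n = 3 each), and the log2 change came to -0.04 ± 0.30 (SE, limma adjusted p = 0.93). The gene overlaps Gm26982 and Gm44033 on the opposite strand, and whether reads were counted by strand is not given in the sources used here, so some of these reads may belong to those genes.

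The knockout-labelled libraries differed from each other in their reads of the enterocyte marker Fabp2, and the 7 genes were set against that. Fabp2 had 0, 4 and 0 reads in control replicates 1 to 3 and 180, 2754 and 1321 reads in the knockout-labelled replicates 1 to 3, so it was lowest in replicate 1, then 3, then 2. Of the 6 hormone genes with more than 1 read, only Gip had that order. Of all tested genes, 24.1% had it, and 24.3% with the filter at 0.1 FPKM. Gast and Cck had the opposite order, lowest in replicate 2 and highest in replicate 1, which 27.2% of tested genes had, and 21.6% with the filter at 0.1 FPKM. Sct was lowest in replicate 1 and highest in replicate 3, and Tac1 and Ghrl were lowest in replicate 2 and highest in replicate 3. An order over 3 libraries allows no test. Replicate 3 is in the middle of both these orders, and the labels do not say how the replicates were made.

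The reads were enough to separate the 3 libraries for Gip and Cck, but not for Gast, Sct, Tac1 or Ghrl. Relative to the gene's own mean over the 3 libraries, Gip was at 0.136 in replicate 1 (95% Poisson interval 0.0371 to 0.349), 0.72 in replicate 3 (0.445 to 1.1) and 2.14 in replicate 2 (1.63 to 2.77). Cck was at 2.07 in replicate 1 (1.55 to 2.71), 0.76 in replicate 3 (0.458 to 1.19) and 0.17 in replicate 2 (0.0463 to 0.435). The intervals of the 3 libraries do not overlap for either gene, and the directions are opposite. For Gast, replicate 1 was at 1.5 (1.07 to 2.04), replicate 3 at 0.865 (0.548 to 1.3) and replicate 2 at 0.638 (0.365 to 1.04). The interval of replicate 3 overlaps both others, while those of replicates 1 and 2 do not overlap. For Sct, replicates 2 and 3, at 1.2 (0.622 to 2.1) and 1.61 (0.937 to 2.57), overlap. Replicate 1, at 0.188 (0.0228 to 0.68), overlaps replicate 2 but not replicate 3. The reads thus do not say whether Sct has the order of Fabp2. For Tac1, the interval of replicate 1 (0.674 to 1.8) overlaps those of replicates 2 (0.109 to 0.786) and 3 (0.977 to 2.27). The intervals of all 3 libraries overlap for Ghrl.

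**Figure D2:**
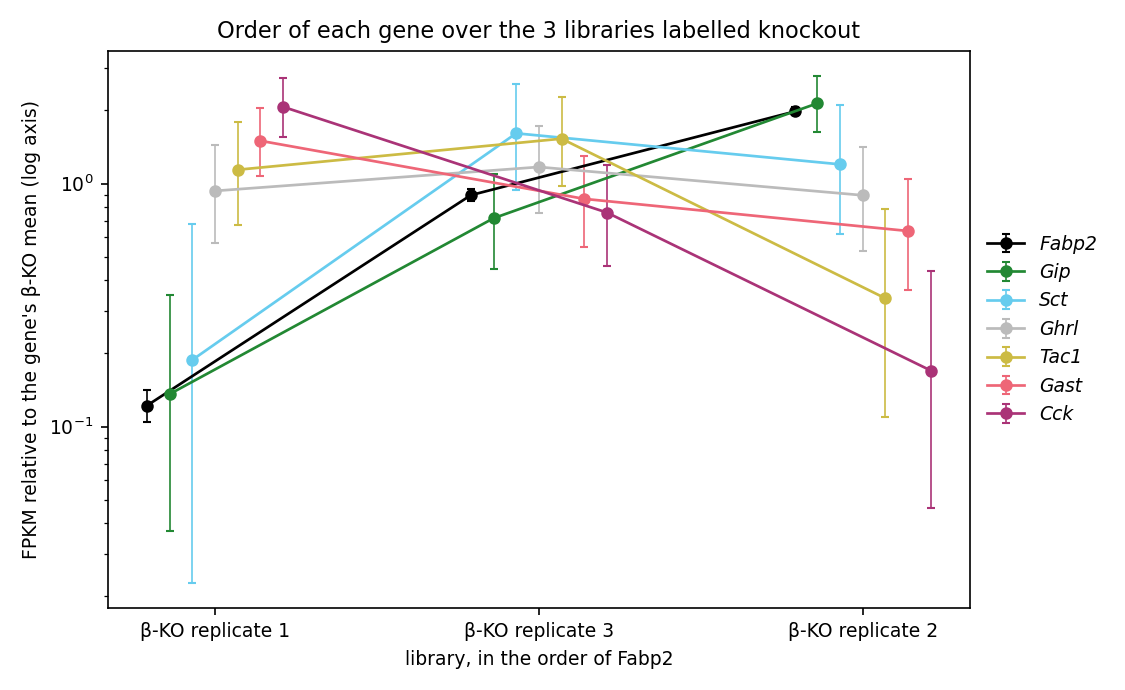
FPKM of each gene relative to its mean over the 3 knockout-labelled libraries (y axis, log scale), with 95% counting intervals, and the libraries placed from left to right in the order of Fabp2. Gip climbs with Fabp2 from 0.136 to 2.14, Cck goes down from 2.07 to 0.17, Gast goes from 1.5 to 0.638, and Ghrl stays within its intervals.

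The size of the step between replicates 1 and 2 sorted the genes further. Fabp2 was 16.3 times as high in replicate 2 as in replicate 1 (95% counting interval 14.0 to 19.1), and Gip 15.7 times (5.83 to 59.6). Only 0.388% of the tested genes with reads in replicate 1 had a ratio as high as that of Gip, and the median ratio over tested genes was 0.99. Sct, at 6.4 times, had an interval from 1.42 to 58.8, which includes the ratio of Fabp2. Gast had a ratio of 0.426 (0.223 to 0.779), at or below which 1.83% of genes lay. Cck had a ratio of 0.082 (0.0215 to 0.223), at or below which 3.46% of genes lay with the filter at 0.1 FPKM. Tac1, at 0.296 (0.0859 to 0.828), was lower in replicate 2 as well, and Ghrl was at 0.959 (0.479 to 1.91).

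Per 1000 Fabp2 reads of the same library, Gip gave 22.2 reads in knockout-labelled replicate 1 (95% counting interval 5.99 to 57.9), 21.4 in replicate 2 (16.3 to 27.7) and 15.9 in replicate 3 (9.81 to 24.4). The intervals of Gip relative to Fabp2 thus overlapped in all 3 libraries. Gast gave 222 reads per 1000 Fabp2 reads in replicate 1 (154 to 314), 5.81 in replicate 2 (3.32 to 9.45) and 17.4 in replicate 3 (11 to 26.2). Cck went from 289 (208 to 395) in replicate 1 to 1.45 (0.395 to 3.72) in replicate 2 and 14.4 (8.63 to 22.6) in replicate 3. For these 2 genes the ratio to the enterocyte marker was not constant. Nor was it for Tac1, at 100, 1.82 and 18.2 in replicates 1 to 3. Ghrl, whose own intervals overlapped in all 3 libraries, ran likewise at 111, 6.54 and 18.9. Sct gave 11.1 (1.34 to 40.7), 4.36 (2.25 to 7.62) and 12.9 (7.47 to 20.7) reads per 1000 Fabp2 reads in replicates 1 to 3, with intervals that overlap.

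**Figure D3:**
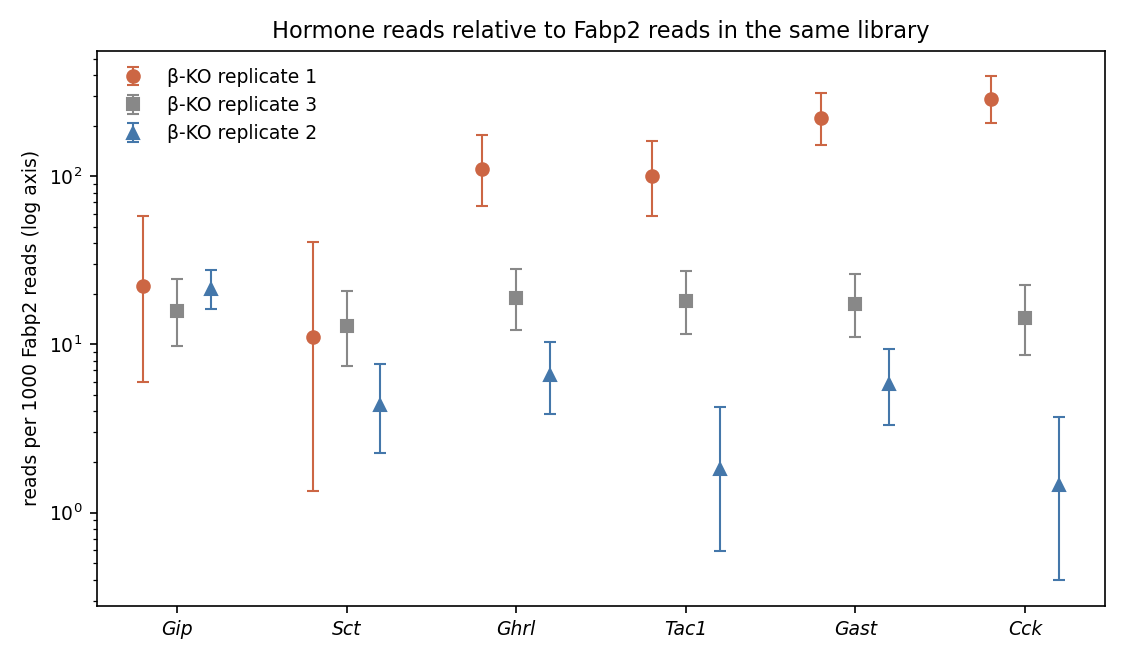
Reads of each hormone gene per 1000 Fabp2 reads of the same library (y axis, log scale) in the 3 knockout-labelled libraries, with 95% counting intervals. For Gip the 3 libraries fall together between 15.9 and 22.2, while for Cck they run from 1.45 in replicate 2 to 289 in replicate 1.

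Enterocyte, goblet and Paneth cell markers mostly had the order of Fabp2, which Gip shared and Gast and Cck did not. The part of these and other tissue markers in the results was not tested. Of 25 tested enterocyte genes other than Fabp2, 22 were called higher and none lower, and 24 had the order of Fabp2. Among all tested genes these shares were 16.9%, 17.2% and 24.1%. The 29 listed enterocyte genes other than Fabp2, tested or not, summed to 140.0 to 162.7 FPKM in the control libraries. Their sums were 308.7, 1157 and 668.2 FPKM in the knockout-labelled replicates 1 to 3. Alpi, an alkaline phosphatase of the enterocyte brush border, had 0 reads in every control library and 396, 3508 and 1760 in the knockout-labelled replicates 1 to 3, at least 1400-fold higher in the mean (769-fold without replicate 2). Rbp2, an enterocyte retinol carrier, had a log2 difference of 6.26 ± 0.91 (SE, limma adjusted p = 0.00334) and Prap1, a protein secreted by the gut epithelium, 5.55 ± 0.71 (limma adjusted p = 0.00214). Of 7 tested goblet and Paneth cell genes 5 were called higher and none lower, and 6 had the order of Fabp2, with Tff3, a goblet cell peptide, at 4.66 ± 0.55 (SE, limma adjusted p = 0.00156). Alpi, Rbp2, Prap1, Tff3 and others of these genes were under the filter in controls and passed it only through the knockout-labelled group. Their calls are values and not support for a difference.

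For gastric epithelium, 13 of 14 listed markers were in the table and 3 were tested, with 1 called lower. The list summed to 14.36, 26.04 and 15.0 FPKM in control replicates 1 to 3 and to 27.01, 7.962 and 22.21 FPKM in the knockout-labelled replicates 1 to 3. The defining markers Gkn2 (0 reads in all 6 libraries), Gkn1, Tff1, Muc5ac and Atp4b had at most 3 reads in any library. Tff2, a trefoil peptide that made up most of that sum, had 212, 68 and 201 reads in the knockout-labelled replicates 1 to 3, the order of Gast and Cck, but a log2 difference of 0.06 (limma adjusted p = 0.931). Gkn3 and Pgc, chosen like Tff2 after their values were seen, had the order of Gast and Cck too. So did Pga5, with 8, 0 and 3 reads in the knockout-labelled replicates 1 to 3. Muc6, Gif, Hdc and Atp4a had other orders. Gkn3 had 1, 2 and 0 reads in control replicates 1 to 3 and 108, 3 and 56 in the knockout-labelled replicates 1 to 3, with a log2 difference of 2.14 ± 0.80 (SE, limma adjusted p = 0.0805). Pgc, which encodes a pepsinogen, had 0 reads in the control group and 56, 7 and 24 reads in the knockout-labelled replicates 1 to 3. Atp4a, the catalytic subunit of the gastric proton pump, fell by 2.02 on the log2 scale (SE 0.19, limma adjusted p = 0.00072).

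Acinar genes of the exocrine pancreas, 10 of 11 tested called lower, also followed the order of Gast and Cck in 10 of 11 within the knockout-labelled libraries. Among all tested genes, 17.2% were called lower, 16.9% higher, and 27.2% had this order. Their sum was 762.4, 2347 and 1241 FPKM in control replicates 1 to 3 and 640.9, 344.4 and 473.6 FPKM in the knockout-labelled replicates 1 to 3. The highest acinar level in the control group was thus in replicate 2, the library with the most Gast and Tac1 reads of that group, while the groups differed in the direction opposite to Gast. B- and T-cell markers were called higher in 10 of 10 tested. Enteric neuron and glia markers, which bear on Tac1 as a neuronal peptide, were called higher in 1 of 7 tested and lower in 3, and summed to 52.92 to 58.73 FPKM in the control group and 44.5 to 51.99 in the other. Chat, a defining marker, had 0 reads in the control group and 1 to 10 per knockout-labelled library. Below the filter, and chosen after their values were seen, Prph had 10, 8 and 10 reads in control replicates 1 to 3 and 80, 37 and 63 in the knockout-labelled replicates 1 to 3, with a log2 difference of 1.24 ± 0.22 (SE, limma adjusted p = 0.0103, filter at 0.1 FPKM), and Nos1 had 7, 16 and 3 reads against 56, 41 and 32 (limma adjusted p = 0.205). The 4 tested smooth muscle markers had a median log2 difference of -0.30. Their part in the Tac1 values was not tested.

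Knockout-labelled replicate 1, the library of its group with the fewest Fabp2 reads, held 40 Gast and 52 Cck reads, the most of any library, and 4 Gip reads.

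Among the receptors of these hormones, the incretin receptor fell and most others were barely detected. Of 11 receptor genes 2 were tested and both were called lower, as were 17.2% of all tested genes. A count of 2 is too few to read against that share. Their median log2 difference was -0.96 against -0.005 over all tested genes. Gipr, the receptor through which GIP acts on β cells, had 126, 101 and 122 FPKM in control replicates 1 to 3 and 33.8, 42.7 and 34.3 FPKM in the knockout-labelled replicates 1 to 3. The groups were far apart, and the log2 change came to -1.64 ± 0.13 (SE, limma adjusted p = 0.000361). Sort1, sortilin, which also binds neurotensin, went from 22.5 ± 0.686 to 18.5 ± 1.06 FPKM (SD, n = 3 each) with a log2 difference of -0.27 ± 0.07 (SE, limma adjusted p = 0.0233). That call held in 2 of 6 fits without 1 library, and its direction turned to 0.13 with each library scaled to its own total.

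The receptors of cholecystokinin, gastrin, secretin, substance P and ghrelin were low. Cckar, the cholecystokinin receptor of acinar cells, had 6, 34 and 9 reads in control replicates 1 to 3 and 11, 14 and 13 in the knockout-labelled ones, with its highest value in the control library richest in acinar RNA. Cckbr, the shared receptor of gastrin and cholecystokinin, had 3 reads in control replicate 3 and 0 elsewhere. Ghsr, the ghrelin receptor, had 37, 45 and 62 reads against 67, 41 and 56, and its groups overlapped. Sctr, the secretin receptor, had 8, 19 and 23 reads against 16, 14 and 19, and overlapped too. Ntsr1 had 1 read in all. Tacr1, the substance P receptor, had 0, 0 and 3 reads against 11, 18 and 5, without overlap. With the filter at 0.1 FPKM the log2 differences were -0.21 for Cckar (limma adjusted p = 0.626), -0.21 for Sctr (limma adjusted p = 0.556) and -0.15 for Ghsr (limma adjusted p = 0.597).

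The enzymes that turn these precursors into active peptides were abundant and in part higher in the knockout-labelled libraries. Of 16 processing and modifying genes, 14 were tested, 8 were called higher, 1 lower and 5 neither (12 higher and 0 lower with own-total scaling), with a median log2 difference of 0.43. Over all tested genes 16.9% were called higher and 17.2% lower, and with own-total scaling 7550 of 14497 were higher and 716 lower. Of the 14, 10 had the order of Gast and Cck over the knockout-labelled libraries, as had 27.2% of all tested genes. The list was written with earlier results of these data known and is no independent evidence of a direction.

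Pam, which amidates the end of gastrin, cholecystokinin, secretin and substance P, had 36.9, 37.7 and 38.8 FPKM in control replicates 1 to 3 and 100, 65.8 and 84.7 FPKM in the knockout-labelled replicates 1 to 3, a log2 difference of 1.11 ± 0.15 (SE, limma adjusted p = 0.00235). Pcsk1, prohormone convertase 1/3, rose from 115 ± 7.86 to 181 ± 36.9 FPKM (SD, n = 3 each), by 0.63 ± 0.15 (SE, limma adjusted p = 0.0209), a call kept in 3 of 6 fits without 1 library. Tpst1 and Tpst2, the tyrosine sulfotransferases of peptides such as cholecystokinin, rose by 0.66 ± 0.14 (SE, limma adjusted p = 0.0151) and 0.56 ± 0.10 (SE, limma adjusted p = 0.00765). All 4 of these were highest in knockout-labelled replicate 1 and lowest in replicate 2, as Gast and Cck were.

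Scg5, the 7B2 chaperone of the convertase Pcsk2, rose from 387 ± 19.0 to 834 ± 168 FPKM (SD, n = 3 each), by 1.09 ± 0.15 on the log2 scale (SE, limma adjusted p = 0.00296). Furin, a convertase of the Golgi, rose by 0.56 ± 0.07 (SE, limma adjusted p = 0.00192), while Ece1, an endopeptidase, fell by 0.46 (SE 0.07, limma adjusted p = 0.00388). Pcsk2, convertase 2, was at 359 and 363 FPKM (limma adjusted p = 0.958), and Cpe, the carboxypeptidase that trims the cut ends, at 1125 and 1390 FPKM (limma adjusted p = 0.211). Qpct, which forms the pyroglutamate at the start of gastrin and neurotensin, had a log2 difference of -0.08 (limma adjusted p = 0.807). Mboat4, the acyltransferase that activates ghrelin, had 0, 4 and 2 reads against 5, 2 and 8, with groups that overlapped.

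**Figure D4:**
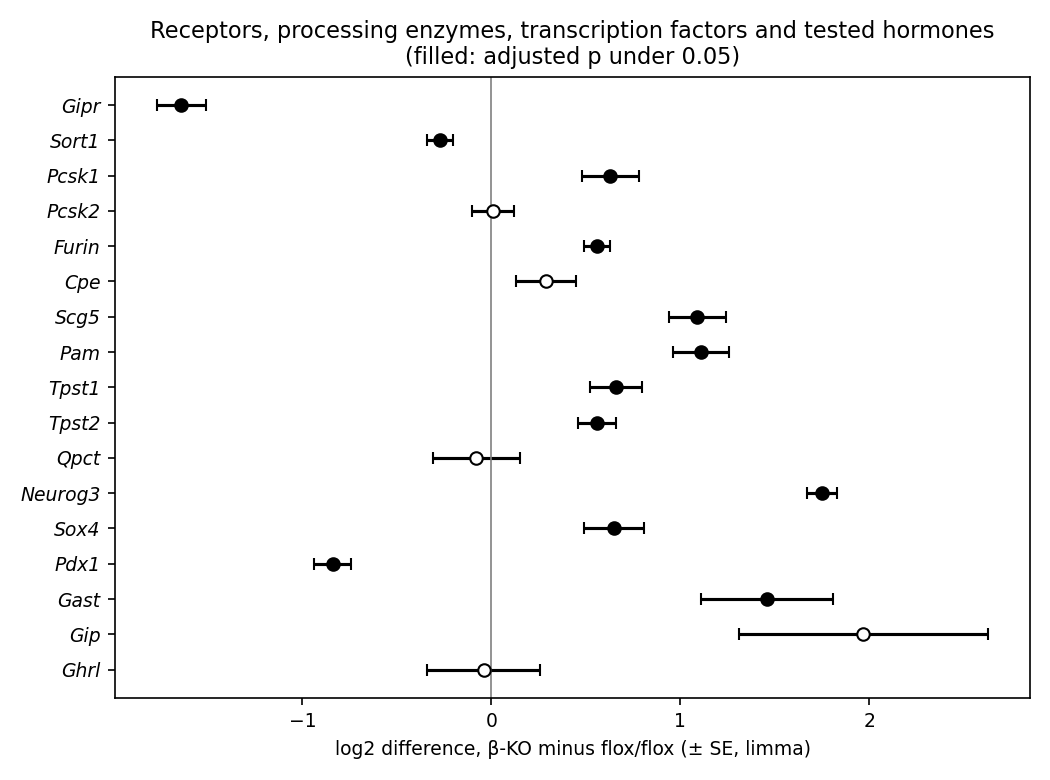
Log2 difference of each gene, knockout-labelled libraries (β-KO) minus control (flox/flox), on the log2(FPKM + 0.5) scale (x axis), with limma standard errors and filled points where the adjusted p is under the threshold. Gipr lies at -1.64, Pam and Scg5 lie at 1.11 and 1.09, and Gip at 1.97 has the widest error and an open point.

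Of 11 other tested hormone genes of gut and islet, 1 had the order of Fabp2, 7 that of Gast and Cck, and the rest neither. Among all tested genes, 24.1% and 27.2% had these orders, 16.9% were called higher and 17.2% lower. Own-total scaling called 7550 of the 14497 higher and 716 lower. Of 26 listed, 11 were tested, 2 were called higher, 1 lower and 8 neither (5 higher and 1 lower with own-total scaling, 0 higher and 3 lower with voom on recovered reads, 0 higher and 1 lower with no filter), and the median log2 difference was 0.01. Vip, a peptide of enteric and islet nerves, had 4, 15 and 5 reads in control replicates 1 to 3 and 316, 49 and 218 reads in the knockout-labelled replicates 1 to 3. It was thus lowest in replicate 2 and highest in replicate 1, like Gast and Cck, with a log2 difference of 2.10 ± 0.52 (SE, limma adjusted p = 0.0228) that kept its call in 2 of 6 fits without 1 library. With 0.161 FPKM in controls, Vip passed the filter only through the knockout-labelled group, so this call is a value and not support for a difference. Guca2b, uroguanylin of the gut epithelium, had 0 reads in the control libraries and 11, 171 and 73 in the knockout-labelled replicates 1 to 3. It followed Fabp2, as Gip did, with 61.1, 62.1 and 55.3 reads per 1000 Fabp2 reads, and was at least 63.1-fold higher in the mean (30.0-fold without replicate 2). It passed the filter only through the knockout-labelled group, so its log2 difference of 2.91 ± 0.76 (SE, limma adjusted p = 0.027, called in 1 of 6 fits without 1 library) is a value and not support for a difference. Npy, a neuropeptide also made in islets, fell by 1.76 (SE 0.33, limma adjusted p = 0.00887).

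Transcription factors of gut endocrine cells, nearly all of which islets use too, were called higher in 7 of 20 tested and lower in 3 (15 and 1 with own-total scaling), with a median log2 difference of 0.16. Among all tested genes 16.9% were called higher and 17.2% lower, and with own-total scaling 7550 of 14497 were higher and 716 lower. Neurog3, which starts the endocrine fate in both gut and pancreas, rose by 1.75 ± 0.08 on the log2 scale (SE), with 63, 65 and 64 reads in control replicates 1 to 3. Its reads were 371, 332 and 312 in the knockout-labelled replicates 1 to 3, a narrow range beside those of Cck and Gip. Sox4, a factor of endocrine progenitors, rose by 0.65 ± 0.16 (SE, limma adjusted p = 0.0202), and kept that call in 2 of 6 fits without 1 library. Pdx1, a factor of β cells and of the duodenum and antrum, fell by 0.84 (SE 0.10, limma adjusted p = 0.00135). Of 10 tested markers of β-cell dedifferentiation, the state in which β cells lose mature genes and take up progenitor genes, 5 were called higher and none lower. Aldh1a3, an aldehyde dehydrogenase used as their best known marker, rose by 3.92 ± 0.19 and Serpina7, thyroxine-binding globulin, by 4.56 ± 0.18. Of the 10, 7 had the order of Gast and Cck over the knockout-labelled libraries, as had 27.2% of all tested genes. The order was also that of 10 of 16 tested islet endocrine identity genes and 10 of the 20 transcription factors, so it is not particular to dedifferentiation markers. Whether the Gast and Cck reads came from dedifferentiated cells was not measured.

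The 3 genes most like each hormone gene over the 6 libraries were taken from 7050 tested genes with a mean of at least 5 FPKM. The measure was the Pearson correlation of log2 values, which share libraries and depth. Picking the highest of so many correlations over 6 libraries gives high values in itself, and likeness was not tested. For Gast they were Slc25a51, a mitochondrial carrier (r = 0.997), Odc1, ornithine decarboxylase (0.997), and Tmed10, a cargo receptor of the secretory pathway (0.996). Odc1 ran from 22.8 to 28.0 FPKM in the control libraries and was 44.7, 31.8 and 36.3 FPKM in the knockout-labelled replicates 1 to 3. For Gip they were Mttp, which loads lipid onto apolipoprotein B in enterocytes (0.994), Slc27a4, a fatty acid transporter (0.993), and Bak1, an apoptosis effector (0.993). Mttp was 4.27, 29.0 and 14.7 FPKM in the knockout-labelled replicates 1 to 3 and 2.18 to 2.41 FPKM in the control libraries, and is on the enterocyte list. For Cck, added after the values were seen because it is under the filter, they were Dnajb1, a heat shock cochaperone (0.996), Lipo3 (0.994) and Dnajc6 (0.992). For Ghrl they were Inpp5a (0.981), Epn2 (0.963) and Spag9 (0.945), none of them past the threshold.

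The nearest tested genes on the chromosome were mixed. Eif1, 12311 bases from Gast, had a log2 difference of -0.35 ± 0.10 (SE, limma adjusted p = 0.0358), and Hap1, 10331 bases away on the other side, had 0.51 ± 0.07 (SE, limma adjusted p = 0.00299) and the order of Gast. Snf8, 4054 bases from Gip, was at -0.14 ± 0.11 (SE, limma adjusted p = 0.337). B4galnt2, 109654 bases away on the other side, was at 1.67 ± 0.58 (SE, limma adjusted p = 0.0643), which missed the threshold, with the order of Fabp2. Trak1, 14906 bases from Cck, was at 0.09 ± 0.07 (SE, limma adjusted p = 0.343). Vipr1, 147022 bases away on the other side, was at -0.68 ± 0.15 (SE, limma adjusted p = 0.0162), also with the order of Fabp2. Cdhr5, a microvillus cadherin of enterocytes that lies 1544 bases from Sct, rose by 3.84 ± 0.78 (SE, limma adjusted p = 0.0118) with the order of Fabp2. Sct had another order, but the intervals of its replicates 2 and 3 overlap.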

How the data were processed

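RNA of pancreatic islets was sequenced in 6 libraries, grouped by the genotype and title labels. The build GRCm38.p6 and the tools DESeq2 1.16.1, featureCounts 1.5.0-p3 and HISAT2 2.0.5 are named per the submitters' processing notes, with roles and settings not given in the sources used here. The authors deposited 1 table that holds FPKM values beside lengths and positions of genes, per the file headers. Multiplied by length, the FPKM of a library were all multiples of 1 step (100% within 0.1 of a whole number), and the multiples were taken as reads. Of 54556 identifiers 53620 matched the reference annotation, and 0 columns of per-sample values were left unused. A median-of-ratios scaling was already in the deposited values, under which the typical gene shows no change.

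The test, limma 3.58.1 (lmFit, eBayes with a trend, under R 4.3.3), took the 14497 genes whose mean reached 1 FPKM, on log2(FPKM + 0.5), two-sided, over all 6 libraries with no covariate. Adjusted p-values are Benjamini-Hochberg over all tested genes, with a threshold of 0.05. The test was tried on simulated data first. Intervals of 95% on reads are exact Poisson or Clopper-Pearson intervals. Reads of libraries within a group differed beyond sampling noise, with chi-square values per degree of freedom from 6.578 to 29.84, so none was deposited more than once.

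The hormone genes and the 15 gene lists were chosen with earlier results of these data known. Named were the hormone genes, Fabp2, the receptors Cckar, Cckbr, Gipr, Sctr, Ntsr1, Sort1, Tacr1 and Ghsr, the enzymes Pcsk1, Pcsk2, Cpe, Pam, Mboat4, Tpst1, Tpst2 and Qpct, the up to 3 called genes per list with the largest log2 difference, and the 3 most correlated genes of each tested hormone gene. Others were chosen after their values were seen. Alternatives were own-total and quantile scaling, pseudocounts of 0.1 and 1, filters of 0.1, 5 and none, voom on the recovered reads, leaving out libraries, and a replicate block. For genes under the filter, these were run with the filter at 0.1, a choice made after seeing the data.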

Additional observations from a re-analysis of the deposited data

How the results depend on the processing

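Counts of called genes depended on scaling and on single libraries. Over all tested genes, 4935 were called (2446 higher, 2489 lower). Scaling each library to its own total, which moved the median of all genes by 0.363 on the log2 scale, gave 8266 (7550 higher, 716 lower), the filter at 5 FPKM 3090, and leaving out knockout-labelled replicates 2 and 3 together 1317. Leaving out 1 library gave 2780 (knockout-labelled replicate 3) to 4236. Of the hormone genes 1 was called, against 2 with own-total scaling and 0 to 2 without 1 library (2 without knockout-labelled replicate 1), and the filter at 5 FPKM left none to test. Among the other gut and islet hormones, 3 calls became 6 with own-total scaling, 1 with no filter and 1 to 4 without 1 library, and voom on recovered reads gave 3, all lower. The 9 calls among processing genes became 5 to 8 without 1 library. The 10 among transcription factors became 16 with own-total scaling (15 higher, 1 lower), 6 to 12 without 1 library and 3 without knockout-labelled replicates 2 and 3. Fabp2 was not called by voom on recovered reads (limma voom adjusted p = 0.393). The number of hormone genes with the order of Fabp2 was 1 also by share of the library total. Causes of these shifts were not tested.

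Directions turned in 21 fits, all for differences that had missed the threshold except Sort1. With own-total scaling the log2 difference was 0.22 for Ghrl, 0.13 for Sort1, 0.22 for Qpct, 0.38 for Inpp5a and 0.37 for Epn2, and with quantile normalization -0.18 for Pcsk2. Without 1 library it ran from -0.32 to 0.21 for Ghrl (turned without control replicate 3, and to 0.01 without knockout-labelled replicate 2), from -0.38 to 0.07 for Cckar, from -0.31 to 0.11 for Qpct and from -0.04 to 0.09 for Spag9 (all without control replicate 2), and from -0.09 to 0.10 for Pcsk2 (without knockout-labelled replicate 1, and to -0.02 without control replicate 3). It ran from -0.07 to 0.03 for Inpp5a (0.01 without control replicate 1, 0.00 without knockout-labelled replicate 1) and from -0.06 to 0.04 for Epn2 (0.02 without knockout-labelled replicate 2). Without knockout-labelled replicates 2 and 3 it was -0.37 for Sct and 0.00 for Ghsr and Epn2.

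Replicate numbers are shared by both groups, and no label says that they pair libraries. Same-numbered libraries had deviations from the group means that correlated at 0.0811, 0.0751 and 0.0423, none over 0.1, though each library correlated best with its own number, a hint from the data and not from the design. With the replicate block 4659 genes were called, and 0 hormone genes, Gast having a limma adjusted p of 0.0513.

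Depth limits these results. Gast rested on 14 reads in the control group and 79 in the other, Cck on 5 and 75, Gip on 0 and 84, Sct on 11 and 31 and Tac1 on 8 and 47, while Nts had 1 read in all. What change could have been detected in Sct, Nts and Tac1 was not tested.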

Other observations

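Enterochromaffin cells make serotonin and are the most numerous endocrine cells of the gut. Of 11 listed enterochromaffin genes 5 were tested, none was called higher and 2 were called lower, against 16.9% and 17.2% of all tested genes. Maob, a monoamine oxidase, fell by 1.63 on the log2 scale (SE 0.07, limma adjusted p = 5.1e-05) and Gch1, which starts synthesis of the cofactor of tryptophan hydroxylase, by 0.50 (SE 0.11, limma adjusted p = 0.0138). Tph1, the serotonin-forming hydroxylase that defines these cells, had 0 reads in the control libraries and 0, 3 and 2 reads in the knockout-labelled replicates 1 to 3. Reg4, another marker, had 0 reads against 1, 13 and 6, in the order of Gip and Fabp2. Both were looked at after their values were seen.

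Nutrient receptors that gut endocrine cells and islets share changed in both directions, with 3 of 11 tested called higher and 4 lower (6 and 3 with own-total scaling) and a median log2 difference of -0.11. The shares among all tested genes were 16.9% higher and 17.2% lower, and with own-total scaling 7550 of 14497 were higher and 716 lower. Ffar3, a receptor for short-chain fatty acids, went from 16.1 ± 1.90 to 4.03 ± 0.952 FPKM (SD, n = 3 each) with a log2 difference of -1.89 ± 0.16 (SE, limma adjusted p = 0.000524). Ffar1, a receptor for long-chain fatty acids, fell by 1.24 (SE 0.14, limma adjusted p = 0.00129). Casr, the calcium-sensing receptor that on G cells promotes gastrin release, rose from 7.93 ± 0.480 to 17.6 ± 1.27 FPKM, by 1.10 ± 0.08 (SE, limma adjusted p = 0.000306).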
